A study of Mus musculus with 12 samples.

Results

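Cytosolic ribosomal protein genes encode the proteins of the small and large subunits of the ribosome, and their messages were followed here across 4 stages of mouse granulopoiesis. Members were defined by gene symbol, and the family was chosen with earlier results of these data known. A row of the array table belonged to the family when its platform annotation gave it exactly 1 symbol and that symbol was Rpl or Rps followed by a digit, or was Rplp0, Rplp1, Rplp2 or Rpsa. Symbols of the S6 kinases and of annotated pseudogenes were left out, and each gene was represented by its row with the highest mean over all arrays. The rule found 63 symbols among the 19937 genes that have a row with 1 symbol. Of the 63, 54 were subunit proteins proper (21 of the small subunit, 30 of the large subunit and the 3 stalk proteins), 7 were paralogs or further copies, and 2 (Rps19bp1 and Rps23rg1) carry such a symbol without being ribosomal proteins. Another 23 of the 77 subunit genes listed for this account were not analysed here.

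RNA came from untreated bone marrow of C57BL/6 mice, taken from femur, tibia and spine. Cells were sorted by flow cytometry into LSK cells (lineage-negative, Sca1+, cKit+ hemopoietic stem and progenitor cells), promyelocytes, myelocytes and granulocytes. The last 3 populations were separated from marrow depleted of B and T lineage and Sca1+ cells by Gr-1, cKit, CD34 and Fc receptor staining. Each population was measured on 3 Affymetrix mouse gene arrays. The labels call the 3 arrays biological replicates without saying whether they came from separate mice, so p-values measure only the spread between these arrays. Values are log2 intensities, and a difference of 1 is a 2-fold change.

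A ribosome is built from ribosomal RNA and one copy of almost every ribosomal protein, and cells usually make these proteins in matched amounts. Their messages are among the most abundant in growing cells. Nearly all of them begin with a cytosine followed by a run of pyrimidines, the terminal oligopyrimidine (TOP) tract, through which growth signalling by mTOR sets their translation and the RNA-binding protein Larp1 sets their stability. Ribosome production is known to be sensitive in blood cells: inherited human mutations in ribosomal protein genes such as RPS19 cause Diamond-Blackfan anaemia.

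The tract that defines this message class can be read at the annotated start of some members. RefSeq promoter windows (build GRCm38.p6) were matched by symbol for 43 of the 54 subunit genes, in 50 windows. In 9 of these windows, 18% of the 50, the annotated first base was a C that opened a pyrimidine run of at least 5 bases, against 2.51% of all 32851 windows. The 6 members with the longest runs, at least 8 bases, are printed in the direction of transcription from 10 bases before the start to 20 bases from it, with the run in capitals.
Rps10, chr17:27635225-27635254, minus strand: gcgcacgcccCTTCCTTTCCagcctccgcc
Rps18, chr17:33955646-33955675, minus strand: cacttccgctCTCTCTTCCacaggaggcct
Rps6, chr4:86857348-86857377, minus strand: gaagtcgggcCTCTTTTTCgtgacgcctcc
Rps15a, chr7:118116128-118116157, minus strand: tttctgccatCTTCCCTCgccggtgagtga
Rpl28, chr7:4792955-4792984, plus strand: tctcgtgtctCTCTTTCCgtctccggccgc
Rpl38, chr11:114668570-114668599, plus strand: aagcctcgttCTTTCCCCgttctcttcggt
These 6 were picked for the run, and 41 of the 50 subunit gene windows had none by this rule. The capitals mark only the part of the run from the annotated start, and the base before it is a pyrimidine in all 6. An annotated start can lie a few bases from the start the cell uses, so a window without such a run says only that these letters are not at that position. Of 3 other motifs searched on both strands of the same windows, CCGGAAG (an ETS factor motif) was in 36% of the subunit gene windows and 8.86% of all windows, AAGATGGC (a YY1 motif) was in 4% and 2.75%, and TATAAA was in 10% and 13.6%.

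The ribosomal protein messages were high and level in LSK cells and promyelocytes, fell at the myelocyte stage and fell again in granulocytes. Of the 63 members, 56 had their lowest stage mean in granulocytes and 60 had their highest in LSK cells or promyelocytes. The order of stage means was not counted over all genes. In 53 members all 6 arrays of the 2 early stages lay above all 6 arrays of the 2 late stages, as they did in 15.4% of all genes. In the moderated F test over the 4 stages 58 of the 63 members had an adjusted p under 0.05, against 54.0% of all genes tested. Equal amounts of total RNA were labelled and the arrays were scaled to a common distribution, so each value is relative to the other messages of the same sample. In bulk RNA of this kind, fewer cells of a type and less RNA per cell cannot be told apart.

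**Figure D1:**
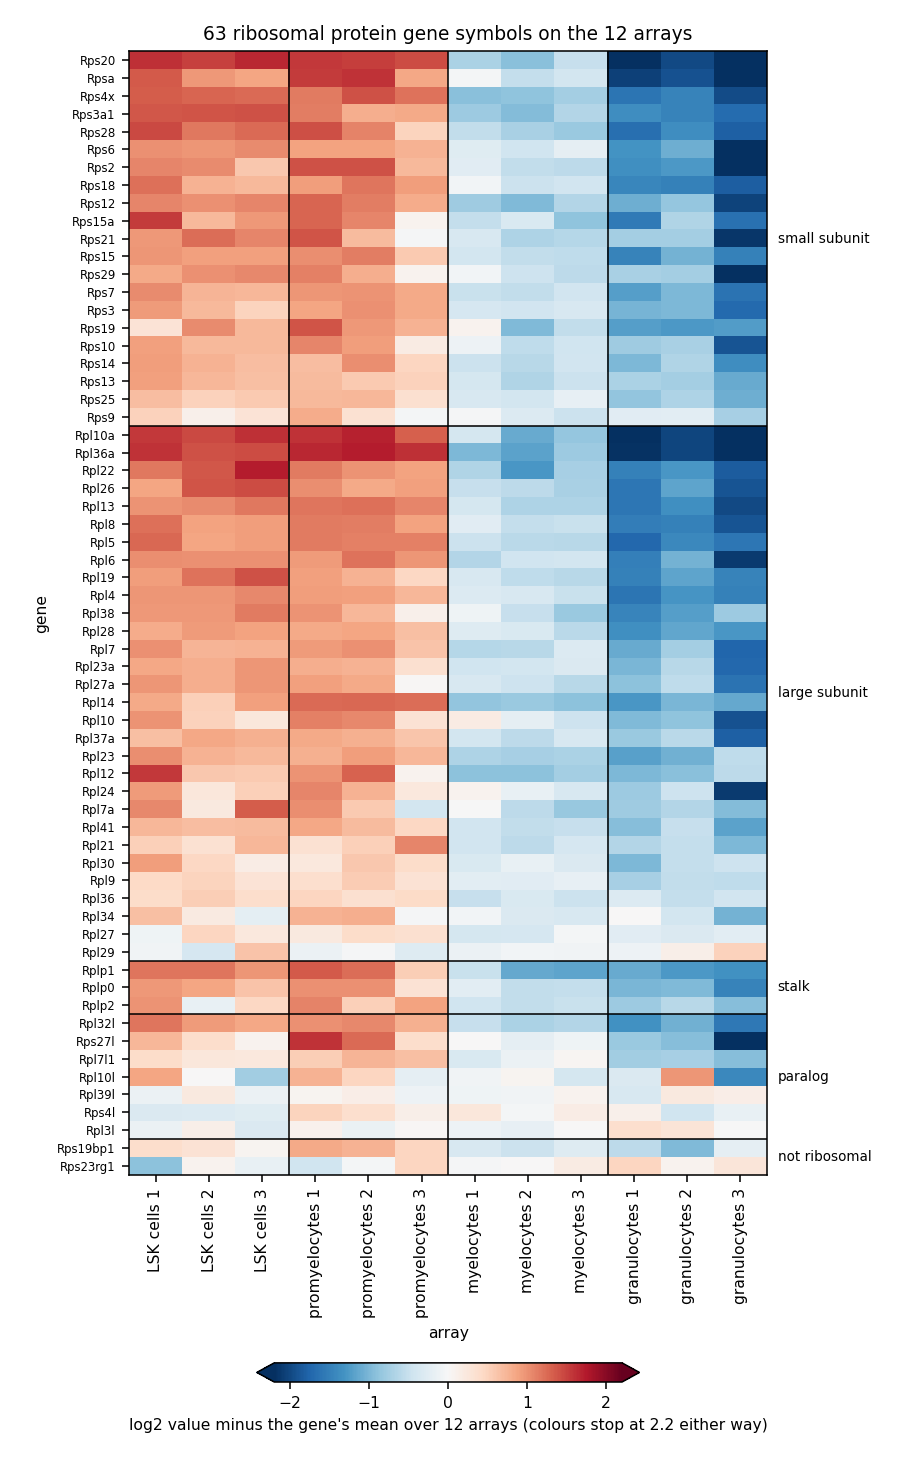
Each row is 1 of the 63 gene symbols and each column 1 of the 12 arrays, with colour giving the log2 value minus that gene's mean over the 12 arrays. Rows are grouped by role and ordered within a role by the difference of granulocytes minus LSK cells, and the subunit proteins change from red to blue between promyelocytes and myelocytes while several paralogs stay pale.

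The median of the members on each array shows the same course. Each member was centred on its own mean over the 12 arrays, and the median over the 63 members was then 0.95, 0.77 and 0.73 on the 3 LSK arrays, 0.97, 0.88 and 0.51 on the promyelocyte arrays, -0.36, -0.54 and -0.48 on the myelocyte arrays and -1.01, -0.93 and -1.49 on the granulocyte arrays. The early and the late stages did not overlap, nor did myelocytes and granulocytes, whereas LSK cells and promyelocytes did. The lowest array was granulocyte array 3, and promyelocyte array 3 was the lowest of the early arrays. Over all genes the same centred median stayed between -0.11 and 0.09.

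The populations were checked against marker genes. The mean log2 level of 5 stem and progenitor markers (Kit, Cd34, Flt3, Meis1, Hlf) was 10.22 to 10.77 on the LSK arrays, 7.74 to 8.69 in promyelocytes and no higher than 5.93 at the later stages. That of 4 primary granule genes (Mpo, Elane, Prtn3, Ctsg) was 8.93 to 11.35 in LSK cells, 11.65 to 12.21 in promyelocytes, 8.23 to 8.32 in myelocytes and 5.64 to 6.91 in granulocytes. The level of 5 secondary granule genes (Ltf, Camp and others) was no higher than 9.10 at the early stages, 12.87 to 13.01 in myelocytes and 12.41 to 12.72 in granulocytes. The level of 4 late neutrophil genes (Mmp9, Cxcr2, Il1b, Csf3r) was no higher than 6.50 at the early stages, 9.74 to 9.95 in myelocytes and 11.76 to 11.94 in granulocytes. Markers of other lineages moved between the stages as well. The mean level of 5 basophil and mast cell markers was 4.86 to 5.53 in LSK cells, 6.98 to 9.41 in promyelocytes, 8.12 to 10.92 in myelocytes and 4.48 to 4.83 in granulocytes. That of 6 monocyte markers was 6.11 to 7.52 in LSK cells, 8.84 to 9.65 in promyelocytes, 7.17 to 8.72 in myelocytes and 6.20 to 6.84 in granulocytes. Of these 6, Csf1r averaged 8.05 in myelocytes and 9.26 in granulocytes, and the other 5 were lower in granulocytes than in myelocytes. A gene was called dim when its mean stayed below 4.51 at every stage, the 95th percentile of olfactory and vomeronasal receptor genes on these arrays, and none of these markers was. The mean levels of 5 eosinophil markers were 5.94 to 8.62 in promyelocytes and no higher than 6.20 at the other stages. Of these 5, Ccr3 averaged 4.14 in promyelocytes, 5.42 in myelocytes and 5.37 in granulocytes, and the other 4 were highest in promyelocytes. Of 6 erythroid markers 3 were measured, with mean levels between 5.36 and 6.45 on all arrays. Of these 3, Tfrc averaged 8.07 in LSK cells, 9.13 in promyelocytes, 7.23 in myelocytes and 6.54 in granulocytes. Klf1 and Epor averaged between 4.44 and 5.49 at every stage. The mean levels of B cell and of T and NK cell markers lay between 3.47 and 5.55 on all arrays. Among the T and NK cell markers, Nkg7 averaged 9.31 in LSK cells, 10.74 in promyelocytes, 7.36 in myelocytes and 5.34 in granulocytes. Il7r averaged 5.81, 3.72, 5.69 and 4.32 at the same stages. The part of other cells in the ribosomal protein levels was not tested.

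From LSK cells to promyelocytes the family hardly moved. The limma fit over all genes, with Benjamini-Hochberg adjustment and a fold of at least 2, called 0 members higher and 0 lower in promyelocytes, where it called 1.61% of all genes higher and 2.75% lower. At an unadjusted p under 0.05 with that fold 0 members passed, where 336 of all 19937 genes were higher and 560 lower. Without a fold 4 members were higher and 2 lower, a count not made over all genes. With the adjusted p and any fold the fit called 2 members higher and 1 lower, against 5.79% and 7.22% of all genes. The median difference of promyelocytes minus LSK cells was -0.01 over the members and 0.04 over all genes, and single members ranged from -0.47 to 0.67.

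The 3 members called at any fold were small changes. Rpl14, a large subunit protein, had log2 values of 8.32, 8.34 and 8.31 in promyelocytes, against 7.91, 7.60 and 7.97 in LSK cells. The arrays did not overlap, and the difference was 0.50 ± 0.14 (SE, n = 3 arrays each, limma adjusted p = 0.0246). Rps3a1, a small subunit protein, had 9.95, 9.62 and 9.65 in promyelocytes, against 10.19, 10.22 and 10.22 in LSK cells, a difference of -0.47 ± 0.14 (limma adjusted p = 0.0437). Rps4l, a copy of the X-linked small subunit gene Rps4x, had 6.52, 6.40 and 6.16 in promyelocytes, against 5.71, 5.71 and 5.76 in LSK cells, a difference of 0.63 ± 0.16 (limma adjusted p = 0.0137). Its parent Rps4x averaged 10.97 ± 0.14 in promyelocytes and 11.01 ± 0.04 in LSK cells (SD, n = 3 each).

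The step from promyelocytes to myelocytes carried the largest change of the 3 successive steps. The limma fit called 46 members lower in myelocytes with a fold of at least 2, which is 73.0% of the members, and called 9.87% of all genes lower. The fit called 0 members higher with a fold of at least 2 or with any fold, against 7.61% and 15.6% of all genes. At an unadjusted p under 0.05 without a fold 0 were higher, a count not made over all genes. With any fold 55 members were lower, against 19.1% of all genes. The myelocyte and promyelocyte arrays did not overlap, with myelocytes lower, in 55 members and in 22.5% of all genes. The median difference was -1.21 over the members and 0.01 over all genes.

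**Figure D2:**
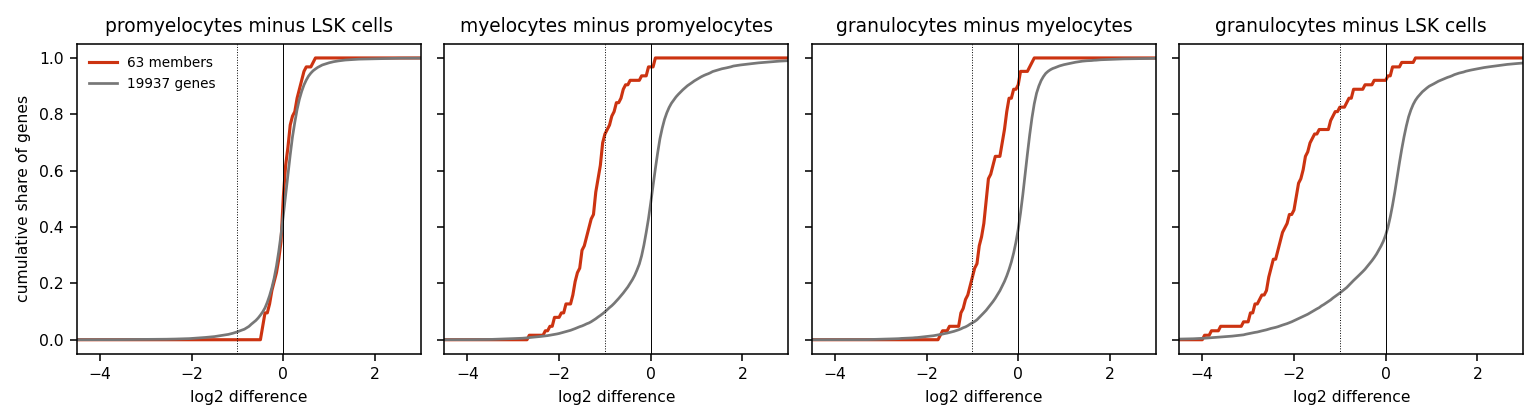
Each panel plots the cumulative share of genes (vertical axis) at or below a log2 difference (horizontal axis) for the 63 members in red and all 19937 genes in grey, with a dotted line at a 2-fold decrease. The curves lie close together for promyelocytes minus LSK cells, and the red curve lies to the left in the other 3 comparisons, with medians of -1.21, -0.69 and -1.95.

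All parts of the ribosome took part in this step. Of the 21 small subunit genes 19 fell by at least 2-fold (median difference -1.39), as did 21 of the 30 large subunit genes (median -1.19) and all 3 stalk genes (median -1.33). Among the 7 paralogs 2 did so, with a median of -0.48. The division of the 54 subunit genes at their median level over all arrays gave medians of -1.23 for the 27 brighter and -1.37 for the 27 dimmer genes.

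The largest decreases in myelocytes were in Rpl36a, Rpl10a, Rps20, Rpl14 and Rps4x. Rpl36a, a large subunit protein near the tRNA exit site, had 8.34, 8.14 and 8.52 in myelocytes, against 10.97, 11.05 and 10.93 in promyelocytes. The 2 groups lay more than 2 log2 units apart, and the difference was -2.66 ± 0.14 (SE, n = 3 each, limma adjusted p = 9.44e-10). Rpl10a, which forms a mobile arm of the large subunit beside that site, had 10.03, 9.32 and 9.57 in myelocytes, against 12.01, 12.11 and 11.73 in promyelocytes, a difference of -2.31 ± 0.18 (limma adjusted p = 7.81e-08). Rpl14 lost in this step more than it had gained in the step before, with 6.20, 6.25 and 6.16 in myelocytes and a difference from promyelocytes of -2.12 ± 0.14 (limma adjusted p = 8.70e-09). Rps20 and Rps4x, both of the small subunit, differed by -2.21 ± 0.20 and -2.10 ± 0.15.

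Granulocytes stood lower again than myelocytes, with a smaller change that differed more between arrays. The limma fit called 14 members lower in granulocytes with a fold of at least 2, which is 22.2% of the members against 5.96% of all genes, and 34 lower with any fold, against 13.9% of all genes. The fit called 0 members higher with a fold of at least 2 or with any fold, against 2.35% and 8.07% of all genes. At an unadjusted p under 0.05 without a fold 0 were higher, a count not made over all genes. Without granulocyte array 3, the lowest array of the family, 8 members passed the 2-fold call, beside 1163 of all 19937 genes. Without granulocyte array 2, 19 members did, beside 1248 of all genes. The median difference was -0.69 over the members and 0.09 over all genes, and it was -0.49 without array 3. The count of 14 was 9 with each array centred on its 75th percentile, beside 886 of all genes. It was 6 with the mean of a gene's rows (1149 of all genes) and 4 with its lowest-mean row (1145). With the lowest-mean row the share of members was near that of all genes. The arrays did not overlap, with granulocytes lower, in 42 members and in 19.8% of all genes. In 57 members the difference of myelocytes minus promyelocytes lay below that of granulocytes minus myelocytes. These include Rpl29 and Rps23rg1, which fell in neither step.

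Rpsa, Rps20 and Rpl10a led the later step. Rpsa, a small subunit protein that is also found at the cell surface as a laminin receptor, had 7.97, 8.10 and 7.79 in granulocytes, against 9.98, 9.49 and 9.62 in myelocytes. Its granulocyte arrays lay well apart from the myelocyte arrays, and the difference was -1.74 ± 0.21 (SE, n = 3 each, limma adjusted p = 1.71e-05). Rps18, a small subunit head protein, had 9.89, 9.84 and 9.53 in granulocytes, against 11.27, 10.86 and 10.91 in myelocytes, a difference of -1.26 ± 0.17 (limma adjusted p = 6.33e-05). Rps20 and Rpl10a differed by -1.67 ± 0.20 and -1.50 ± 0.18. Rps27l, a paralog of the small subunit gene Rps27 and a known p53 target, had 6.09, 5.96 and 4.54 in granulocytes, against 6.91, 6.70 and 6.81 in myelocytes. Array 3 was far below the other two there. The difference of -1.28 ± 0.35 (limma adjusted p = 0.0158) became -0.78 (adjusted p = 0.0762) without that array.

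Over the whole course, granulocytes against LSK cells, the limma fit called 52 of the 63 members lower with a fold of at least 2, which is 82.5% of the members against 16.5% of all genes. With any fold 57 were lower, against 25.3% of all genes. The fit called 0 members higher with a fold of at least 2 or with any fold, against 9.59% and 26.6% of all genes. At an unadjusted p under 0.05 without a fold 1 was higher, a count not made over all genes. The granulocyte and LSK arrays did not overlap, with granulocytes lower, in 56 members and in 26.8% of all genes. The median difference was -1.95 over the members and 0.17 over all genes. Of the small subunit genes 20 of 21 were lower by at least 2-fold (median -2.29), of the large subunit genes 26 of 30 (median -1.92), and of the stalk genes 3 of 3 (median -1.97). The 2 steps and the whole course share arrays, so their counts are not independent of each other.

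By the rows used, the size of the decrease varied among subunit genes from almost none to 15.7-fold. Rps20 had the largest decrease, with 11.39, 11.29 and 11.45 in LSK cells, 11.34, 11.30 and 11.22 in promyelocytes, 9.09, 8.87 and 9.27 in myelocytes and 7.54, 7.81 and 6.86 in granulocytes. The early stages overlapped, and each later stage lay wholly below the one before. The difference of granulocytes minus LSK cells was -3.97 ± 0.20 (SE, n = 3 each, limma adjusted p = 1.98e-10). Rpl10a, Rpl36a, Rpsa and Rps4x followed with differences of -3.82 ± 0.18, -3.63 ± 0.14, -3.12 ± 0.21 and -2.96 ± 0.15. Rpl10a had 8.09, 8.40 and 7.93 in granulocytes, against 11.98, 11.88 and 12.03 in LSK cells, and Rpl36a had 7.15, 7.30 and 7.04, against 10.91, 10.71 and 10.75. No array of these 5 genes in granulocytes came within 2 log2 units of an LSK array.

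**Figure D3:**
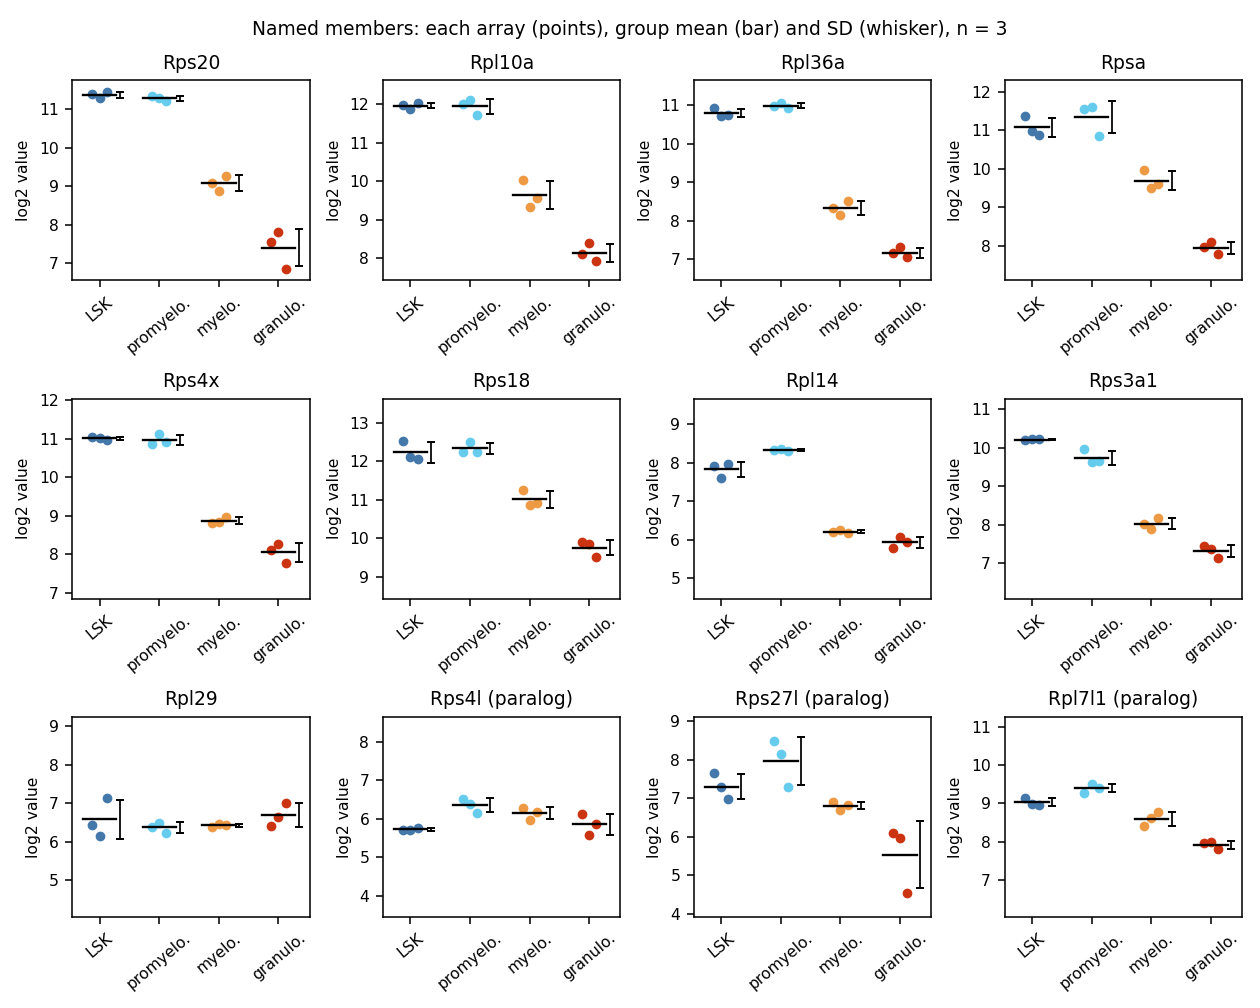
Points are the log2 values of single arrays for 12 named genes at the 4 stages, bars the group means and whiskers the SD (n = 3 arrays), with every panel spanning the same number of log2 units. Rps20, Rpl10a, Rpl36a and Rpsa step down at myelocytes and again at granulocytes, Rpl14 falls in 1 step, and Rpl29 and Rps4l show no such steps.

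Some members are named here for their known roles. Rps6, the small subunit protein phosphorylated by the S6 kinases, had 10.32, 10.55 and 9.36 in granulocytes, against 12.63, 12.60 and 12.66 in LSK cells, a difference of -2.55 ± 0.22 (limma adjusted p = 9.98e-08). Rpl5, which carries a small ribosomal RNA into the large subunit and restrains Mdm2 when free, had 8.94, 9.26 and 9.09 in granulocytes, against 11.94, 11.54 and 11.60 in LSK cells, a difference of -2.59 ± 0.14 (limma adjusted p = 5.71e-10). Rps19, the gene most often mutated in Diamond-Blackfan anaemia in humans, had 6.54, 6.48 and 6.52 in granulocytes, against 8.05, 8.78 and 8.46 in LSK cells, a difference of -1.92 ± 0.24 (limma adjusted p = 5.56e-06). In none of these 3 genes did the groups overlap. Rplp0, the scaffold of the stalk that recruits translation factors, had 10.44, 10.47 and 9.97 in granulocytes, against 12.40, 12.31 and 12.07 in LSK cells, and its partners Rplp1 and Rplp2 differed by -2.34 ± 0.21 and -1.21 ± 0.23.

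By the strictest description, a fold of at least 2 against each of the other 3 stages, 14 members (22.2%) were lowest in granulocytes, as were 4.99% of all genes. No member was highest at any stage by that rule, or lowest at another stage. In 42 members all 3 granulocyte arrays lay below the other 9 arrays, as they did in 14.2% of all genes.

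Of the 63 members 6 did not pass the test of granulocytes against LSK cells at any fold, and Rpl29, a large subunit protein, was the only subunit gene among them. It had 6.45, 6.15 and 7.14 in LSK cells, 6.39, 6.50 and 6.23 in promyelocytes, 6.39, 6.46 and 6.43 in myelocytes and 6.41, 6.64 and 7.02 in granulocytes. All 4 stages overlapped, and the difference of granulocytes minus LSK cells was 0.11 ± 0.22 (limma adjusted p = 0.680). Rpl29 had only 1 row, with stage means from 6.37 to 6.69, and the median level of the subunit genes was 10.32. Whether that row measures the Rpl29 message well was not tested. Rpl36, Rps9, Rpl34 and Rpl27 passed at any fold with differences of -0.86, -0.72, -0.70 and -0.47. The other 2 rows of Rpl27 differed by -1.87 and -1.41.

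Of the 7 paralogs 3 were dim, 3 fell and Rps4l did neither. The dim members were Rpl3l, a paralog of Rpl3 known from striated muscle, Rpl10l, an autosomal copy of the X-linked Rpl10 that acts in male germ cells, and Rpl39l, a copy of Rpl39 also known from male germ cells. Their differences of granulocytes minus LSK cells were 0.32 ± 0.15, -0.29 ± 0.47 and 0.02 ± 0.17, and 0 of the 3 were called in any comparison. The parent Rpl10 differed by -1.84 ± 0.28 (limma adjusted p = 4.52e-05), with 10.56, 10.65 and 9.62 in granulocytes, against 12.52, 12.05 and 11.79 in LSK cells.

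Rpl32l, Rpl7l1 and Rps27l, paralogs with signal, fell with the family. Rpl32l had 4.45, 4.72 and 4.21 in granulocytes, against 6.95, 6.72 and 6.63 in LSK cells, a difference of -2.31 ± 0.16 (limma adjusted p = 5.00e-09). Rpl7l1, a paralog of Rpl7, had 7.97, 8.00 and 7.81 in granulocytes, against 9.14, 8.99 and 8.96 in LSK cells, a difference of -1.11 ± 0.14 (limma adjusted p = 4.93e-06). Its parent Rpl7 differed by -2.04 ± 0.21. Rps27l differed by -1.77 ± 0.35 (limma adjusted p = 0.000532). Rps4l averaged 5.86 in granulocytes and 5.73 in LSK cells, a difference of 0.14 ± 0.16, while its parent Rps4x differed by -2.96.

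Of the 2 symbols that are not ribosomal proteins, Rps19bp1 fell less than most subunit genes over the whole course and Rps23rg1 did not fall. Rps19bp1, a nucleolar protein that binds Rps19, had 6.52, 6.12 and 6.90 in granulocytes, against 7.49, 7.42 and 7.16 in LSK cells, a difference of -0.84 ± 0.18 (limma adjusted p = 0.00109), and its difference of myelocytes minus promyelocytes was -1.06 ± 0.18. Rps23rg1, a retroposed copy of Rps23 in mice, had 5.49, 5.10 and 5.28 in granulocytes, against 4.11, 5.10 and 4.86 in LSK cells, a difference of 0.60 ± 0.25 that was not called (limma adjusted p = 0.0506).

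Many of these genes have several rows on the array. Ribosomal protein genes are known for many processed copies across the genome, and whether the rows lie over such copies was not tested. The 63 members had 195 rows with 1 symbol, and 38 members had more than 1. Of the 186 rows above the dim level at any stage, 176 were lower in granulocytes than in LSK cells and 177 were lower in myelocytes than in promyelocytes. Among the 126 such rows that were not the row used for their gene, 119 were lower in granulocytes and the median difference was -1.86. Another 194 rows with signal carried several symbols including a member, and 189 of them were lower in granulocytes, with a median of -1.47. In a fit over all 21640 rows with 1 symbol, 165 member rows were called lower in granulocytes than in LSK cells at any fold and 2 were called higher, against 25.5% and 26.1% of all those rows.

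**Figure D4:**
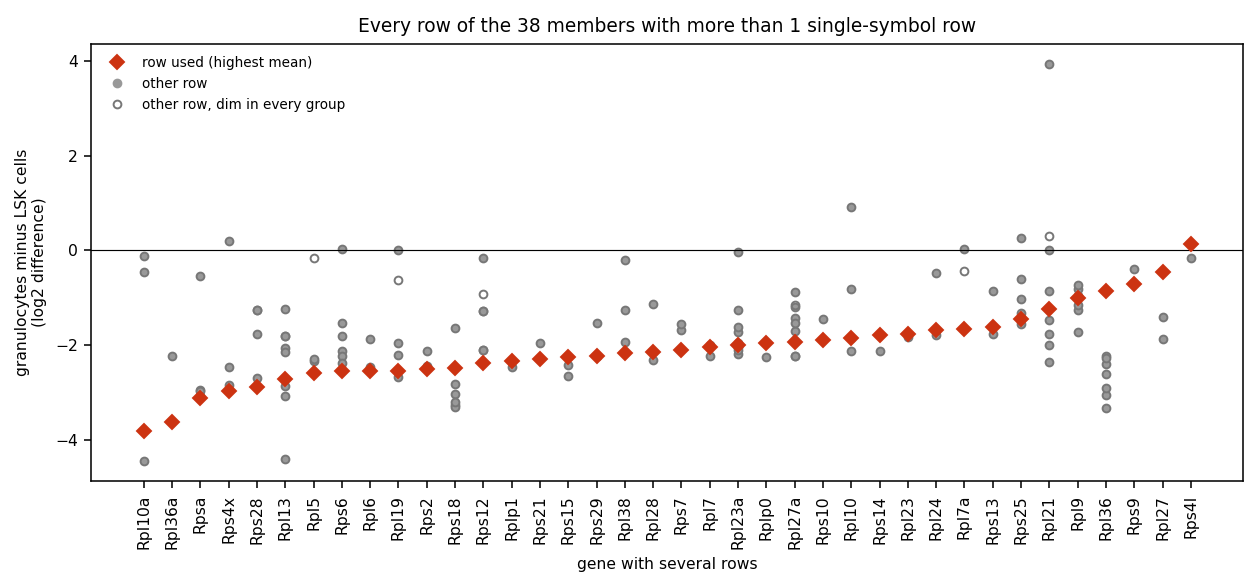
For each of the 38 members with more than 1 row (horizontal axis), the log2 difference of granulocytes minus LSK cells is plotted for the row used (red diamond) and every other row (grey circle, open when dim at every stage). Nearly all points lie below 0, and the rows of Rpl21 range from -2.35 to 3.94.

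Only Rpl21 and Rpl10 had rows called in opposite directions. One row annotated as Rpl21, a large subunit protein, had 6.02, 5.22 and 5.40 in LSK cells, 6.73, 5.95 and 6.46 in promyelocytes, 10.26, 9.85 and 10.10 in myelocytes and 9.63, 9.73 and 9.12 in granulocytes. It rose where the family fell, with a difference of myelocytes minus promyelocytes of 3.69 ± 0.24 (limma adjusted p = 1.48e-08). Whether this row measures Rpl21 was not tested. The Rpl21 row used, which has the highest mean of the 9, had 8.82, 8.67 and 8.88 in myelocytes, against 9.57, 9.77 and 10.32 in promyelocytes, a difference of -1.10 ± 0.19. Of the 5 rows of Rpl10 one was higher in granulocytes than in LSK cells by 0.91 ± 0.24 (limma adjusted p = 0.00516) and 3 were lower. In 4 members, Rpl10a, Rps4x, Rpl10 and Rpl27a, the lowest-mean row did not fall in myelocytes, with differences from promyelocytes of 0.15, 0.16, 0.18 and 0.28, none called. The rows of Rpl36, singled out after its values were seen, disagreed in size. The row used differed by -0.86, and the other 7 rows ranged from -3.33 to -2.24.

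The wider translation genes were read from lists kept beside the family. Of 17 other messages of initiation and elongation factors and known TOP messages, 10 were lower in myelocytes than in promyelocytes with a fold of at least 2 (9.87% of all genes), and 0 were higher (7.61%). Over the whole course 13 were lower in granulocytes than in LSK cells (16.5% of all genes) and the median difference was -1.69. Npm1, a nucleolar chaperone, had 6.18, 6.52 and 5.49 in granulocytes, against 10.86, 10.45 and 10.36 in LSK cells, a difference of -4.49 ± 0.22 (limma adjusted p = 1.79e-10). Eif3e, a subunit of an initiation factor, and Eef1b2, an elongation factor subunit, differed by -3.35 ± 0.18 and -3.12 ± 0.21. Vim, a TOP message that encodes an intermediate filament protein, was higher in granulocytes by 0.59 ± 0.14 (limma adjusted p = 0.00163). Fau, whose product includes a small subunit protein but whose symbol lies outside the rule, had 10.11, 10.12 and 9.62 in granulocytes, against 10.06, 10.18 and 10.35 in LSK cells. Its groups overlapped and its difference of -0.24 ± 0.16 did not pass the test (limma adjusted p = 0.223).

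A further list held factors that chaperone ribosomal proteins and finish the subunits. Of 22 measured, 8 were higher in promyelocytes than in LSK cells at any fold (5.79% of all genes) and 1 of them, Rrs1, with a fold of at least 2 (1.61%). None was lower at any fold (7.22%). Rrs1, which helps load a small ribosomal RNA and its proteins onto the large subunit, had 7.85, 7.92 and 8.34 in promyelocytes, against 7.29, 6.52 and 6.16 in LSK cells, a difference of 1.38 ± 0.30 (limma adjusted p = 0.00514). The groups did not overlap. In myelocytes 13 of the 22 were lower than in promyelocytes with a fold of at least 2 (9.87% of all genes) and 0 were higher, and the median difference was -1.46. Tsr1, a late small subunit assembly factor, had 5.52, 5.37 and 5.43 in myelocytes, against 8.81, 9.22 and 9.26 in promyelocytes, a difference of -3.65 ± 0.16 (limma adjusted p = 1.42e-10). Pno1, another such factor, differed by -2.68 ± 0.24.

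Of 18 growth signalling genes measured, 4 were lower and 1 was higher in myelocytes than in promyelocytes with a fold of at least 2, against 9.87% and 7.61% of all genes. In granulocytes against LSK cells 5 were lower and 1 was higher, against 16.5% and 9.59%. The median difference of the 18 genes was -0.03 in myelocytes minus promyelocytes, against 0.01 over all genes. In granulocytes minus LSK cells it was -0.44, against 0.17 over all genes. Myc, a transcription factor that drives ribosome production, had 4.39, 4.82 and 4.53 in granulocytes, against 10.46, 10.76 and 11.14 in LSK cells, a difference of -6.21 ± 0.26 (limma adjusted p = 2.70e-11). Larp1 had 6.81, 6.94 and 7.42 in granulocytes, against 9.34, 9.63 and 9.53 in LSK cells, a difference of -2.44 ± 0.17 (limma adjusted p = 6.01e-09). Both were also lower in myelocytes than in promyelocytes, with differences of -4.41 ± 0.26 and -1.42 ± 0.17. Mlst8, a subunit of the mTOR complexes, had 9.12, 9.14 and 8.79 in myelocytes, against 7.07, 7.10 and 6.76 in promyelocytes, a difference of 2.04 ± 0.16 (limma adjusted p = 5.61e-08). Eif4ebp1, an inhibitor of cap-dependent initiation, was higher in granulocytes than in LSK cells by 1.02 ± 0.16 (limma adjusted p = 5.67e-05). No relation between these genes and the ribosomal protein messages was tested.

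**Figure D5:**
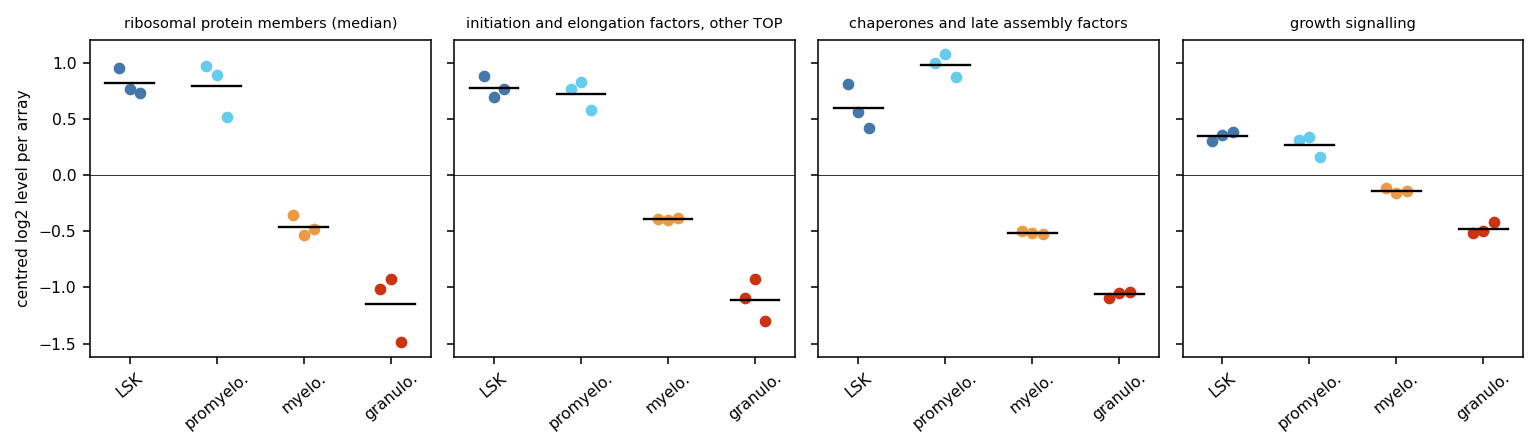
Points are single arrays at the 4 stages, bars are stage means, and the vertical axis is the centred log2 level per array (the median of the centred members in the first panel, the mean level of the list minus its mean over the 12 arrays in the others). The first 2 panels are level over LSK cells and promyelocytes and lower at each later stage, the assembly factors are highest in promyelocytes, and the growth signalling genes span a smaller range.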

How the data were processed

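The authors labelled equal amounts of total RNA, hybridised 12 Affymetrix mouse gene arrays and normalised them with justRMA, and the values they deposited are log2 intensities per probe set, relative within a sample. The version and chip definition are not given in the sources used here. Of 34760 rows, 21640 had 1 symbol in the platform annotation, 1321 several and 11799 none. One fit of 4 group means over 12 arrays (limma 3.58.1, R 4.3.3, eBayes, Benjamini-Hochberg adjustment over 19937 genes) had 8 residual degrees of freedom and was tested on simulated data. A call required an adjusted p below 0.05 together with at least a 2-fold change, or any fold where said. The number of arrays limits the precision, and the median SD within a group was 0.21.

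Members, gene lists and tests were chosen with earlier results of these data known. The text names the 5 largest increases and decreases per comparison among members called at any fold without overlap, called members opposite to the median, members particular to a stage, paralogs with parents, members with rows in opposite directions, the 3 flattest members and 3 called genes per list. Replicate numbers come from the sample titles. Myelocyte and promyelocyte arrays of the same number deviated together (correlations of 0.18, 0.12 and 0.20), so they were paired in an alternative fit, and in the other comparisons not all 3 correlations were over 0.1. Other alternatives covered scaling, choice of row, dim genes, thresholds and each array left out.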

Additional observations from a re-analysis of the deposited data

How the results depend on the processing

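With 3 arrays per population the direction of the members' median was the same in every setting run for the last 3 comparisons. In granulocytes against myelocytes 14 members were called lower, beside 1188 of all 19937 genes. With each array centred on its 75th percentile the count became 9 (886 of all genes), and with the mean of a gene's rows 6 (1149). A fold of 1.5 gave 32 (2372) and any fold 34 (2764). With the lowest-mean row of a gene it was 4, beside 1145 of all genes, so the share of members was near that of all genes. The median of -0.69 became -0.41 with that row. In granulocytes against LSK cells the median of -1.95 became -1.74 with 75th percentile centring and -1.45 with the lowest-mean row. With the lowest-mean row 41 members in place of 52 were called lower there, beside 3234 of all 19937 genes. In myelocytes against promyelocytes that row gave 36 members lower in place of 46, beside 1927 of all genes. In promyelocytes against LSK cells 1 member was called higher with a fold of 1.5, beside 913 of all genes. With any fold 2 members were higher and 1 lower, beside 1155 and 1439 of all genes. With the lowest-mean row the difference took the opposite sign, among the 38 members with several rows, in 4 in myelocytes minus promyelocytes (Rpl10a 0.15, Rps4x 0.16, Rpl10 0.18, Rpl27a 0.28), in 7 in granulocytes minus myelocytes, in 5 in granulocytes minus LSK cells (Rps4x 0.20, Rps6 0.03, Rpl21 0.31, Rpl10 0.91, Rps4l -0.17) and in 13 in promyelocytes minus LSK cells. Of these rows only that of Rpl10 was called, in both comparisons of granulocytes.

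Leaving out each array in turn gave medians from -2.11 to -1.81 and 49 to 53 members lower in granulocytes against LSK cells. All genes called lower in those 2 extreme settings were 3187 and 3290. In granulocytes against myelocytes it gave medians from -0.81 to -0.49. The counts ran from 8 (without granulocyte array 3) to 19 (without granulocyte array 2), beside 1163 and 1248 of all genes. In myelocytes against promyelocytes it gave medians from -1.35 to -1.16 and counts of 38 to 50, beside 1901 and 2226 of all genes. In promyelocytes against LSK cells it gave medians from -0.05 to 0.10 and counts of 0. Of all genes 231 to 403 were called higher there and 480 to 627 lower. In these settings 0 members were called higher in any comparison. The fit with the replicate number as a block called the same numbers of members lower, 0, 46, 14 and 52. It called 550, 1971, 1191 and 3300 of all genes lower.

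With 75th percentile centring the median of all genes was 0.39 in place of 0.17 in granulocytes against LSK cells and 0.25 in place of 0.09 in granulocytes against myelocytes. Calls over all genes then split into 2440 higher and 2781 lower in place of 1912 and 3293, and into 635 higher and 886 lower in place of 469 and 1188. Restricted to subunit genes, 49 of 54 members were called lower in granulocytes against LSK cells, with a median of -2.08. Restricted to rows that list the gene's RefSeq messenger RNA, 49 of 59 were, with a median of -1.97. Beside each, 3290 of all genes were called lower. Both restrictions were chosen after seeing the data. The cause of these shifts was not tested.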
